A study of Mus musculus with 6 samples.

Results

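The genes of glutathione metabolism and the other antioxidant enzymes were compared between upper-layer astrocytes (ULAs) and deep-layer astrocytes (DLAs) of the mouse neocortex. The members were chosen by gene symbol. They were the rows of the expression table named for glutathione S-transferases, glutathione peroxidases, peroxiredoxins, thioredoxins and their reductases, glutaredoxins, superoxide dismutases and heme oxygenases, together with Gclc, Gclm, Gss, Gsr, Cat, Srxn1, Nqo1, Txnip, Nfe2l2 and Keap1. This rule took 61 of 43383 rows, and 50 of the 61 reached the mean level at which a row was tested. GFP-positive astrocytes were sorted from male Aldh1l1-eGFP mice aged 4 weeks, in which the promoter of Aldh1l1 drives GFP, and the tissue was the somatosensory cortex. All 6 libraries carried this transgene and no treatment was given. The 3 ULA libraries came from layers II to IV and the 3 DLA libraries from layers V and VI, 1 of each from each of 3 brains. The dissection left out pia, the outermost layer and white matter, so astrocytes of those places and of the border between the pieces are missing or under-represented. Levels are RPKM, reads per kilobase of mRNA scaled to the mapped reads of the library, so that levels of different genes can be set side by side. Library depth, recovered from the steps of the low values, was 19700000 to 29600000 reads.

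Glutathione is a tripeptide of glutamate, cysteine and glycine that astrocytes hold at high levels and also export for use by neurons. Glutamate-cysteine ligase, a catalytic subunit (Gclc) with a modifier subunit (Gclm), makes the first bond and glutathione synthetase (Gss) adds glycine. Peroxidases and transferases spend glutathione on peroxides and reactive compounds, and glutathione reductase (Gsr) regenerates it. Peroxiredoxins form a parallel system that is kept reduced by thioredoxin. The transcription factor Nrf2 (Nfe2l2) switches on many of these genes, and Keap1 holds it back.

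DLAs had higher levels of 2 members, Gclm and Gstt1, and no member was called higher in ULAs. The test was limma with brain as a term, on log2(RPKM + 1), with p-values adjusted by Benjamini-Hochberg over all 13999 tested rows. Over all of those rows, 0.914% were called higher in DLAs and 0.714% higher in ULAs, and of the 50 tested members 2 and 0 were. Fold changes below are given as ULA over DLA on the log2 scale, so a negative value means a lower level in ULAs. No 36-base stretch, the length of a read, of the GENCODE transcripts of Gclm (1088 bases, against 1470 in the table) and Gstt1 (1037 bases in both) also occurred in a transcript of another gene.

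Gclm, the modifier subunit that raises the activity of glutamate-cysteine ligase, lies on the plus strand of chromosome 3 (mm9, 121948510 to 121969566, 7 exons). Its level for brains 1, 2 and 3 in turn was 29.93, 10.21 and 34.31 RPKM in ULAs and 49.91, 15.88 and 57.87 RPKM in DLAs. Within each brain the DLA library was the higher one, by 1.67, 1.56 and 1.69 times, while the layers overlapped across brains because both libraries of brain 2 were low. The means were 24.8 ± 12.8 RPKM in ULAs and 41.2 ± 22.3 RPKM in DLAs (SD, n = 3). The log2 fold change was -0.68 with a standard error of 0.10 and an adjusted p of 0.0111. The values rested on 385 to 2519 reads per library. Leaving out brain 1, 2 or 3 kept the call, but without brain as a term it was lost (adjusted p = 0.681), as it was without the filter on low levels (0.3), and over the 11 refits the adjusted p ran from 0.00151 to 0.681. The 250 bases before the RefSeq start of Gclm (GRCm38.p6, chr3:122245307-122245556, plus strand) are shown because this promoter holds a match to the letters of the antioxidant response element described further on, in capitals.
Gclm promoter: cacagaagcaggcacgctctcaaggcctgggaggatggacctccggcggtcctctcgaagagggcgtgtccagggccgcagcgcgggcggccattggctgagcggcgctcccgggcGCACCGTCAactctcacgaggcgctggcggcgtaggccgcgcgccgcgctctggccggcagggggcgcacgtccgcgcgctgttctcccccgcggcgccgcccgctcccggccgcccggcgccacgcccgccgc

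Gclc, the catalytic subunit (chromosome 9, mm9, 77602342 to 77642296), stood at 7.09, 4.86 and 9 RPKM in ULAs and 17.69, 3.79 and 15.23 RPKM in DLAs. The DLA level was 2.5 and 1.69 times that of the ULAs in brains 1 and 3, and 0.78 times in brain 2, where the order was the opposite. The log2 fold change of -0.54 had the largest standard error of the 50 tested members, 0.23, and an adjusted p of 0.283. Without brain 2 it was -0.95 and passed the test (adjusted p = 0.0127, the lowest of a range up to 0.946 over the alternatives). Without brain 1 it was -0.20 (adjusted p = 0.946) and without brain 3 it was -0.46 (adjusted p = 0.156). The ratio of Gclm to Gclc in RPKM ran from 2.1 to 4.22 over the 6 libraries, with the lowest and the next to highest value in the ULAs and DLAs of brain 2.

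Both ligase subunits were low in brain 2 in both layers. On the log2 scale, the level in brain 2 minus the mean of brains 1 and 3 was -1.63 for Gclm and -1.24 for Gclc, whereas the other 48 tested members lay between -0.40 and 0.37. Gclm ranked 41 and Gclc 80 from the lowest among the 13999 tested rows. This deviation weighs both layers of a brain equally and does not enter the layer contrast. Over all rows, 160 (1.14%) were at least 1 log2 unit lower in brain 2. Of these 160, 83.8% had a negative log2 fold change, with a median of -0.37, and 21 were called higher in DLAs against 1 higher in ULAs. The part of this shared profile in the layer difference of Gclm was not tested.

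**Figure D1:**
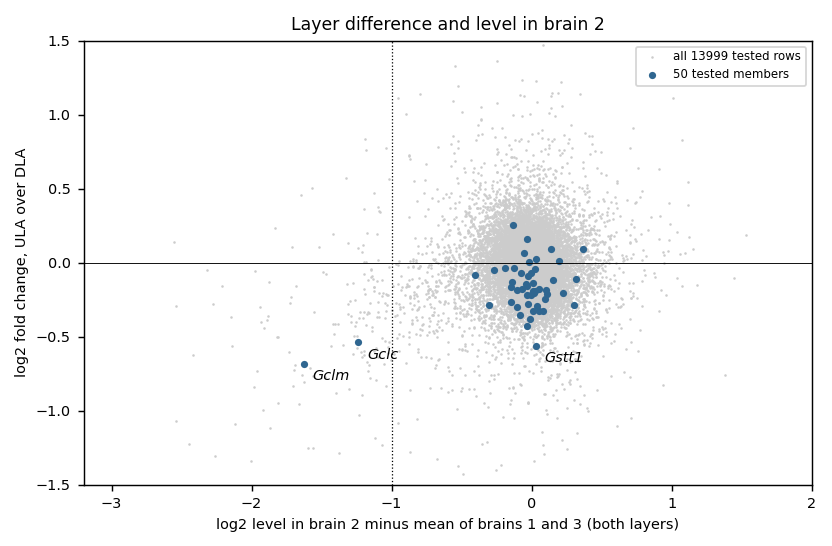
Layer difference (y axis, log2 fold change of ULA over DLA) against the log2 level in brain 2 minus the mean of brains 1 and 3 over both layers (x axis) for all 13999 tested rows (grey) and the 50 tested members (blue), with a dotted line at -1; 17 rows lie outside the axes. Gclm at -1.63 and Gclc at -1.24 are the only members left of the line, and Gstt1 sits at 0.03.

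Glutathione synthetase and glutathione reductase complete this group. Gss was 32.59, 33.35 and 33.11 RPKM in ULAs and 36.87, 35.61 and 38.67 RPKM in DLAs, so that the layers did not overlap, but the log2 fold change of -0.16 did not pass (SE 0.10, adjusted p = 0.46). Gsr was 16.34, 14.19 and 17.47 RPKM in ULAs and 21.9, 16.39 and 21.26 RPKM in DLAs, lower in the ULAs of each brain with 1 pair of overlapping values (log2 fold change -0.29, adjusted p = 0.238). All 4 genes of synthesis and recycling had negative log2 fold changes, with a median of -0.41, and 1 of 4 passed the test.

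**Figure D2:**
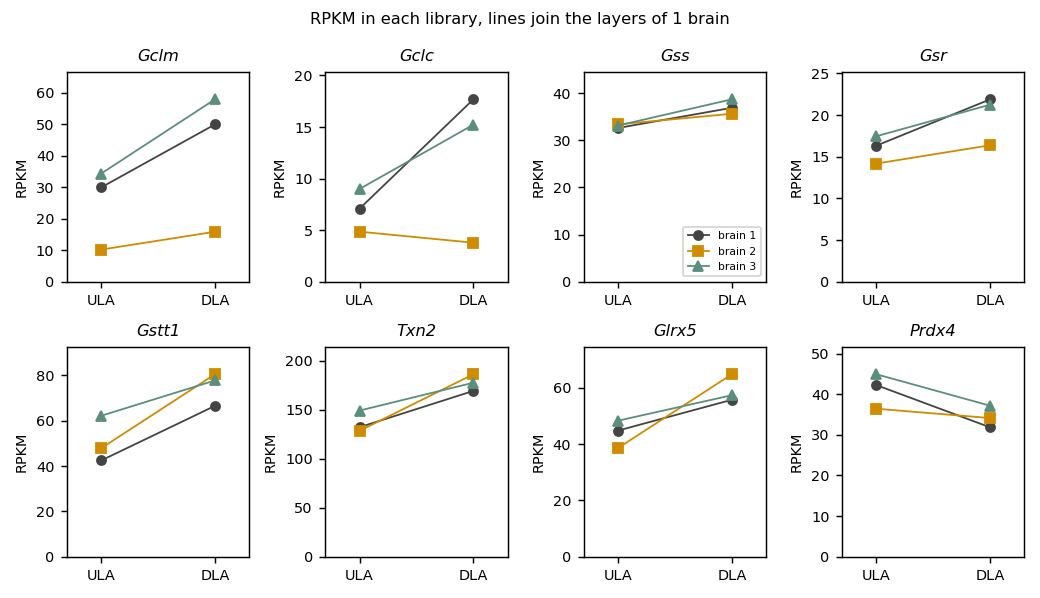
RPKM (y axis, from 0) of 8 members in ULAs and DLAs (x axis), where each line joins the layers of 1 brain. Gclm runs upward from ULA to DLA in all 3 brains, Gclc runs the other way only in brain 2, from 4.86 to 3.79, and Prdx4 runs downward in all 3.

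Gstt1, a theta class transferase that conjugates glutathione to small halogenated compounds, lies on the minus strand of chromosome 10 (mm9, 75246558 to 75261329, 5 exons). It measured 42.46, 47.86 and 62.18 RPKM in ULAs and 66.57, 80.5 and 77.77 RPKM in DLAs. The highest ULA value was below the lowest DLA value, and DLAs were higher by 1.57, 1.68 and 1.25 times within the brains. The means were 50.8 ± 10.2 RPKM in ULAs and 74.95 ± 7.38 RPKM in DLAs (SD, n = 3). The log2 fold change was -0.56 with a standard error of 0.11 and an adjusted p of 0.0363. The call was lost under 8 of 11 alternatives, including leaving out brain 1 (adjusted p = 0.17) or brain 2 (0.0754). Over the alternatives the adjusted p ran from 0.000253 to 0.386 and the log2 fold change from -0.69 to -0.44. Gstt1 shares its stretch of chromosome 10 with Gstt2, Gstt3 and Gstt4 (75236867 to 75297626). Its neighbour Gstt3 had a log2 fold change of -0.29 (adjusted p = 0.254), Gstt2 of 0.01 (adjusted p = 0.99), and Gstt4 was below the filter in every library.

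The mu class dominated the cytosolic transferases, the enzymes that attach glutathione to lipid peroxidation products and foreign compounds. Gstm5 and Gstm1 together made up 86.0% to 86.1% of the summed RPKM of the 20 rows listed as cytosolic transferases in ULAs and 85.7% to 86.6% in DLAs. This list includes Gstk1, an enzyme of mitochondria and peroxisomes. Gstm5 stood at 1099.75, 1188.05 and 1462.78 RPKM in ULAs and 1418.49, 1652.9 and 1509.96 RPKM in DLAs, with 1 ULA value above the lowest DLA value (log2 fold change -0.30, adjusted p = 0.211). Gstm1 stood at 521.89, 526.87 and 592.17 RPKM in ULAs and 645.74, 746.01 and 667.51 RPKM in DLAs, without overlap (log2 fold change -0.33, SE 0.10, adjusted p = 0.146). Neither passed the test. The 7 Gstm rows lie together on chromosome 3 (107698772 to 107847777), and the 5 of them tested ran from -0.33 to 0.01. Of the 36-base stretches of Gstm1, 30.9% also occur in transcripts of other genes, chiefly Gstm3 and pseudogenes. For Gstm5 the share is 15.7%, found in 4933431E20Rik. The values of both genes are uncertain to that extent.

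Among the remaining transferases, Gsta4, which clears the lipid aldehyde 4-hydroxynonenal, did not overlap between layers. It was 46.65, 41.62 and 51.83 RPKM in ULAs and 53.76, 54.63 and 60.49 RPKM in DLAs (log2 fold change -0.27, adjusted p = 0.226). Gstk1 of mitochondria and peroxisomes and Gstp1, the pi class enzyme, stood at -0.30 and -0.25 on the log2 scale (adjusted p = 0.236 and 0.32). Of the 14 tested transferases listed as cytosolic, with Gstk1 counted among them, 11 were negative and 3 (Gstt2, Gstm6 and Gsto1) positive, the highest at 0.09. The other 6 rows were below the filter. Gsta1 and Gsta2 were listed at 0 in every library, and Gstm2, Gstm3, Gstp2 and Gstt4 reached at most 0.54 RPKM. Gsta1, Gsta2 and Gstp2 share 91.5%, 72.8% and 76.2% of their 36-base stretches with other genes, so their low values are uncertain. The microsomal transferase Mgst1, a membrane enzyme, was 129.76, 122.34 and 149.28 RPKM in ULAs and 121.58, 132.11 and 159.21 RPKM in DLAs, which overlapped (log2 fold change -0.04, adjusted p = 0.887). Mgst3 was 16.34 to 16.74 RPKM in ULAs and 18.15 to 20.44 RPKM in DLAs, without overlap and without passing (log2 fold change -0.22, adjusted p = 0.355). Mgst2 was at or under 0.42 RPKM.

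**Figure D3:**
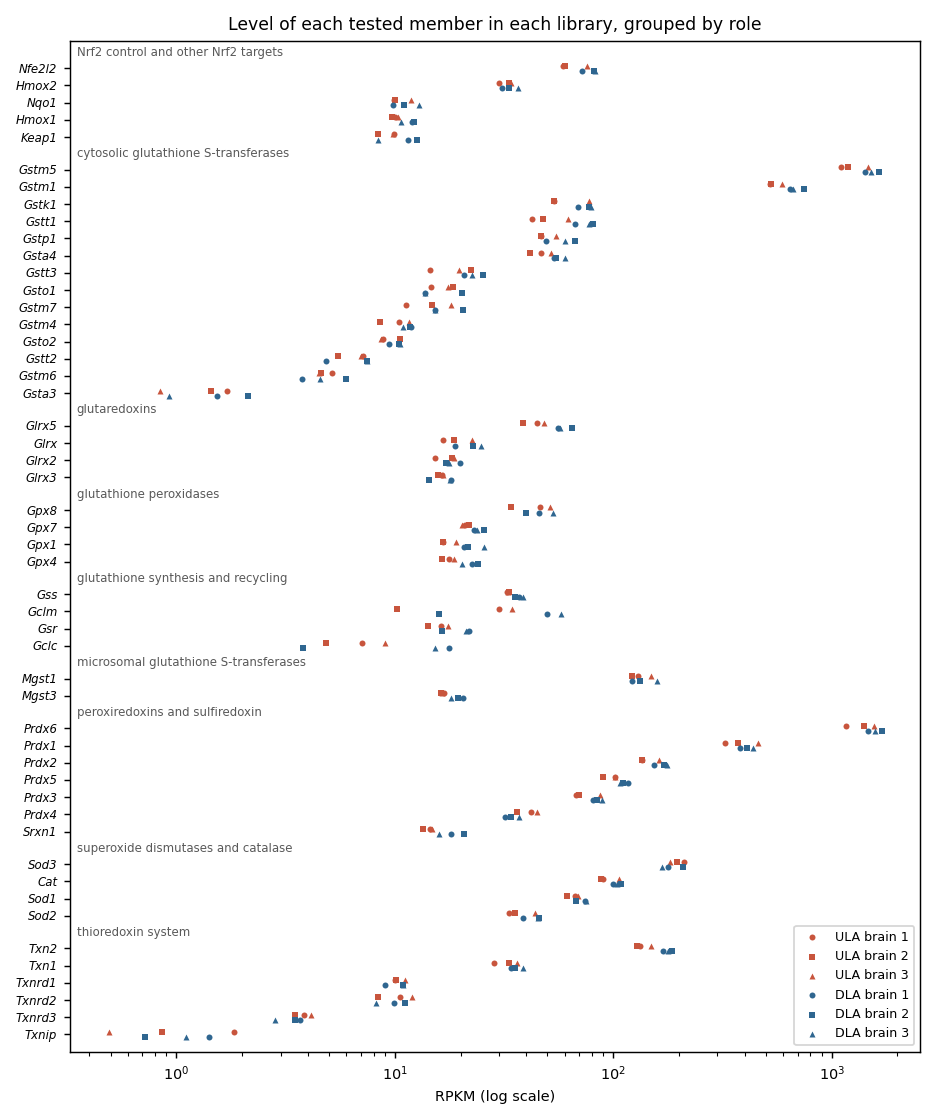
RPKM on a log scale (x axis) of the 50 tested members (y axis, by role and then by level) in each of 6 libraries, where colour marks the layer and symbol the brain. Levels span from under 1 RPKM for Txnip to 1696.46 RPKM for Prdx6, and the squares of brain 2 stand apart from the other brains for Gclm and Gclc.

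Of the glutathione peroxidases, which reduce peroxides with glutathione, 4 of 8 were expressed above the filter and none passed the test. Gpx1, the cytosolic and mitochondrial form, was 16.59, 16.65 and 19.1 RPKM in ULAs and 20.66, 21.75 and 25.6 RPKM in DLAs. The layers did not overlap, and the log2 fold change was -0.36 (SE 0.11, adjusted p = 0.142). Gpx4, which reduces lipid peroxides in membranes and guards against ferroptosis, was 17.66, 16.43 and 18.6 RPKM in ULAs and 22.58, 23.93 and 20.33 RPKM in DLAs. It did not overlap either (log2 fold change -0.33, adjusted p = 0.214), but 65.2% of its 36-base stretches recur in a pseudogene and another transcript. Gpx7 and Gpx8, forms of the endoplasmic reticulum, had log2 fold changes of -0.19 and -0.08 (adjusted p = 0.41 and 0.74). Gpx7 was 20.32 to 21.91 RPKM in ULAs and 23.05 to 25.51 RPKM in DLAs, without overlap, and Gpx8 was 34.03 to 51.34 RPKM in ULAs and 39.8 to 53.01 RPKM in DLAs, with overlap. Gpx8 changed sign under quantile normalization and length correction. The secreted Gpx3 was at or under 0.64 RPKM, and Gpx2, Gpx5 and Gpx6, known from gut, epididymis and olfactory tissue, were listed at 0.

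Prdx6, the peroxiredoxin that uses glutathione and also acts as a phospholipase, was the most abundant member and held 63.2% to 67.7% of the summed RPKM of the 6 peroxiredoxins. It was 1158.02, 1401.65 and 1557.26 RPKM in ULAs and 1463.71, 1696.46 and 1579.41 RPKM in DLAs. The ULA library of brain 3 was above the DLA library of brain 1, although ULAs were the lower layer in each brain (log2 fold change -0.21, adjusted p = 0.328). Prdx1 of the cytosol was 325.61, 371.51 and 462.35 RPKM in ULAs and 382.03, 409.23 and 434.56 RPKM in DLAs, with the highest value in a ULA library (log2 fold change -0.09, adjusted p = 0.68, and positive after length correction). Of its 36-base stretches, 41.1% recur in other transcripts. Prdx5 was 102.23, 89.46 and 102.34 RPKM in ULAs and 116.87, 110.82 and 106.94 RPKM in DLAs, without overlap (log2 fold change -0.19, adjusted p = 0.373). Sulfiredoxin (Srxn1), which rescues overoxidized peroxiredoxins and is a known Nrf2 target, was 14.48, 13.5 and 14.87 RPKM in ULAs and 18.06, 20.78 and 15.97 RPKM in DLAs. It did not overlap and did not pass the test (log2 fold change -0.33, SE 0.13, adjusted p = 0.239).

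Prdx4, the peroxiredoxin of the endoplasmic reticulum, had the highest log2 fold change of the 50, 0.25 (SE 0.11). It was 42.23, 36.42 and 44.9 RPKM in ULAs and 31.83, 34.12 and 37.15 RPKM in DLAs, higher in the ULAs of all 3 brains with overlap across brains. It was the only member with an unadjusted p under 0.05 in this direction, where 5.64% of all rows were, and its adjusted p was 0.28. Prdx4 was singled out after its values were seen. Txnrd3 was the only other member higher in the ULAs of each brain (log2 fold change 0.16, adjusted p = 0.63). It was 3.86, 3.5 and 4.14 RPKM in ULAs and 3.69, 3.49 and 2.82 RPKM in DLAs, nearly equal in brain 2.

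In the thioredoxin and glutaredoxin systems Txn2 and Glrx5, both of mitochondria, had the most negative values, while Glrx2 and Txnrd2, which also have mitochondrial forms, stood at -0.07 and 0.07. Txn2, the mitochondrial thioredoxin, was 132.33, 128.65 and 149.36 RPKM in ULAs and 169.46, 186.45 and 177.83 RPKM in DLAs. The layers did not overlap, the log2 fold change was -0.38 (SE 0.10), and the adjusted p of 0.0975 missed the threshold. Glrx5, a mitochondrial glutaredoxin of iron-sulfur cluster assembly, was 44.8, 38.6 and 48.32 RPKM in ULAs and 55.75, 64.81 and 57.36 RPKM in DLAs, also without overlap (log2 fold change -0.43, SE 0.12, adjusted p = 0.116). Both passed when brain 3 was left out (adjusted p = 0.0159 and 0.00858), the lowest of ranges up to 0.554 and 0.44 over the alternatives. Cytosolic Txn1 was 28.56 to 36.3 RPKM in ULAs and 34 to 38.59 RPKM in DLAs (log2 fold change -0.14, adjusted p = 0.532). Cytosolic Glrx was 16.69 to 22.54 RPKM in ULAs and 18.85 to 24.72 RPKM in DLAs (log2 fold change -0.19, adjusted p = 0.414). Both overlapped between the layers. The 3 thioredoxin reductases had log2 fold changes of 0.02 to 0.16 and none passed. Txnip, an inhibitor of thioredoxin, was near the filter at 0.49 to 1.83 RPKM in ULAs and 0.72 to 1.41 RPKM in DLAs, with a standard error of 0.19.

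The superoxide dismutases, which turn superoxide into hydrogen peroxide, and catalase, which breaks peroxide down, gave no call. Extracellular Sod3 was 210.61, 196.52 and 182.25 RPKM in ULAs and 178.53, 209.18 and 166.84 RPKM in DLAs, above cytosolic Sod1 and mitochondrial Sod2 in every library. Its log2 fold change was 0.09 and the layers overlapped (adjusted p = 0.692). Sod1 was 61.18 to 68.88 RPKM in ULAs and 67.59 to 75.01 RPKM in DLAs (log2 fold change -0.13, adjusted p = 0.512). Sod2 was 33.24 to 43.75 RPKM in ULAs and 38.52 to 45.84 RPKM in DLAs (log2 fold change -0.20, adjusted p = 0.377). Both overlapped between layers, and 31.8% and 57.1% of their 36-base stretches recur in other transcripts. Catalase was 87.76 to 106.27 RPKM in ULAs and 100.01 to 108.06 RPKM in DLAs (log2 fold change -0.14, adjusted p = 0.52).

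Nfe2l2, which encodes Nrf2, was 58.63, 60.44 and 75.7 RPKM in ULAs and 71.74, 81.48 and 82.5 RPKM in DLAs. It was lower in the ULAs of each brain, with 1 ULA value above the lowest DLA value, and did not pass the test (log2 fold change -0.28, SE 0.10, adjusted p = 0.221). Keap1 was 9.92, 8.35 and 9.8 RPKM in ULAs and 11.5, 12.6 and 8.42 RPKM in DLAs, lower in ULAs in brains 1 and 2 only (log2 fold change -0.18, adjusted p = 0.591). The Nrf2 targets Hmox1, the inducible heme oxygenase, and Nqo1, a quinone reductase, stood at 9.72 to 10.31 and 9.96 to 11.93 RPKM in ULAs. In DLAs they stood at 10.68 to 12.26 and 9.86 to 12.94 RPKM. Hmox1 did not overlap and Nqo1 did, with log2 fold changes of -0.19 and -0.07 (adjusted p = 0.452 and 0.799). The constitutive Hmox2 was 30.08 to 33.99 RPKM in ULAs and 31.09 to 36.55 RPKM in DLAs (log2 fold change -0.05, adjusted p = 0.861), with 34.5% of its 36-base stretches shared. None of the 5 genes of this group passed.

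Nrf2 binds the antioxidant response element, whose core letters are TGACNNNGC. These letters were searched on both strands (reverse complement GCNNNGTCA) in the RefSeq promoter windows, 250 bases before to 50 bases after each start, of build GRCm38.p6. They occurred in 10 of the 54 members with a window (18.5%) and in 14.0% of the 27025 genes with one. Gclc, Gsr, Gsta4, Gstt2, Hmox1, Prdx6 and Sod3 had no window in the table used here. The windows of Gstt1, Txn2 and Glrx5 held no match. The 10 matches are shown with 6 flanking bases, the match in capitals, because they mark which promoters of the group hold these letters. They are read 5′ to 3′ on the strand of the gene.
Gclm, chr3:122245417-122245437, plus strand: ccgggcGCACCGTCAactctc
Gsta3, chr1:21240458-21240478, plus strand: caggcaTGACATTGCattttt
Gstm5, chr3:107895806-107895826, plus strand: gcccacTGACCACGCggaggg
Gstm7, chr3:107931729-107931749, minus strand: aagaccTGACAAAGCgaagcc
Mgst1, chr6:138140465-138140485, plus strand: ggcttgGCACGGTCAggaggc
Nfe2l2, chr2:75704889-75704909, minus strand: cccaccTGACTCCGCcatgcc
Prdx1, chr4:116685460-116685480, plus strand: gaaagcGCTGAGTCAtccccc
Sod1, chr16:90220700-90220720, plus strand: aggtggGCGTGGTCAgactca
Srxn1, chr2:152105546-152105566, plus strand: tgggcaGCTAGGTCAgagtga
Txnrd1, chr10:82859108-82859128, plus strand: atttttGCTTTGTCAttctga
The match of Srxn1 begins at base 29 of the transcript and the other 9 lie before the start. The log2 fold changes of these 10 genes ran from -0.68 for Gclm to 0.02 for Txnrd1.

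Across the 50 tested members, 42 had a negative log2 fold change (84.0%, against 55.0% of all tested rows), and their median was -0.18 against -0.03. The differences were small. Of the 50, 47 were within 0.5 on the log2 scale in either direction. In brains 1, 2 and 3 the median difference of the members was -0.19, -0.29 and -0.09, and that of all rows -0.03, -0.02 and -0.04. The level was lower in the ULAs of each brain for 27 members (54.0%, against 23.2% of all rows). The 3 ULA values lay below the 3 DLA values for 13 members, where the background was 9.27% of rows, and above them for 0 members, where it was 6.59%. An unadjusted p under 0.05 on the DLA side was reached by 16 members, against 10.8% of all rows. These counts describe rows that are not independent, and of the 16 only Gclm and Gstt1 passed after adjustment. Since the sorted cells were measured in bulk, fewer cells of a type and less RNA per cell cannot be told apart.

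**Figure D4:**
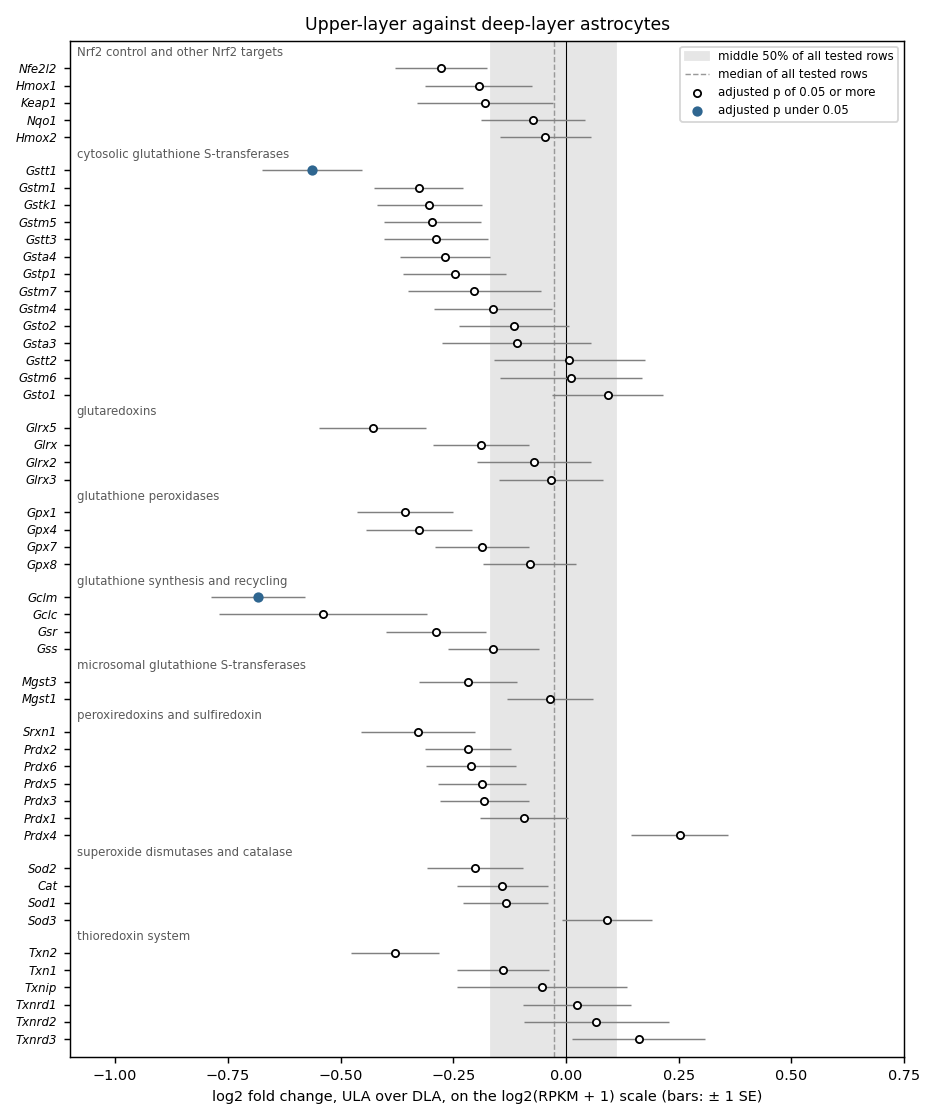
Log2 fold change of ULA over DLA (x axis) with bars of 1 standard error for the 50 tested members by role (y axis); the grey band spans the middle 50% of all tested rows, -0.17 to 0.11, and the dashed line their median, -0.03. Filled points mark the 2 members that passed the test, Gclm at -0.68 and Gstt1 at -0.56.

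Transcript length moved with the same difference. The tested members were short, with a median mRNA length of 1382 bases against 2444 for all tested rows, and over all rows the log2 fold change was higher for longer mRNAs (Spearman's rho 0.34 across 13999 rows, which share libraries and are not independent). The 3951 tested rows of at most 1500 bases had a median of -0.12 and were negative in 69.0% of cases, while the 10048 longer rows had a median of 0.00 and were negative in 49.6%. The 30 members of at most 1500 bases had a median of -0.19 with 26 negative, and the 20 longer members a median of -0.16 with 16 negative. After the ratio of each brain was corrected for length, the median of the members was -0.08 against -0.01 for all rows and 37 of 50 were negative. Under that correction Gclm (1470 bases) was at -0.58 and kept its call (adjusted p = 0.0391), and Gstt1 (1037 bases) was at -0.44 and did not (adjusted p = 0.105).

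**Figure D5:**
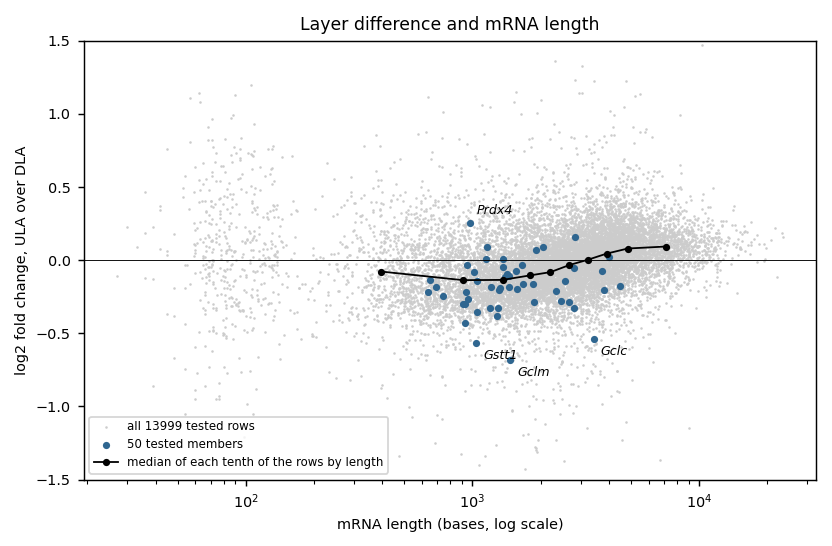
Log2 fold change of ULA over DLA (y axis) against mRNA length in bases (x axis, log scale) for all 13999 tested rows (grey) and the 50 tested members (blue); 17 rows lie beyond the y axis. The black line joins the medians of 10 length classes, which go from -0.14 in the class with a median of 911 bases to 0.09 in the longest, and most members lie below it.

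The partners of these enzymes gave no call. Listed were 74 gene symbols for glutathione supply and export, NADPH supply, other glutathione-using enzymes, Nrf2 pathway partners, and repair and selenium handling. Of these, 71 had a row, 60 were tested and 0 passed in limma. Of the 60, 41 were negative and 19 positive, where 55.0% of all tested rows were negative. At an unadjusted p under 0.05 there were 10 higher in DLAs and 5 higher in ULAs, where the shares of all rows were 10.8% and 5.64%. The ferritin heavy chain Fth1, which stores iron, was 444.6, 427.0 and 463.8 RPKM in ULAs and 598.1, 595.4 and 589.6 RPKM in DLAs (log2 fold change -0.42, adjusted p = 0.0556). Of the 12 tested genes for glutathione supply, turnover and export 7 were positive and 5 negative, with a median of 0.12. The 5 were Ggt7 (-0.22), Cbs (-0.14), Chac2 (-0.14), Cth (-0.11) and the Slc7a11 partner Slc3a2 (-0.08). The cystine transporter Slc7a11, which imports the precursor of cysteine, was 19.01, 20.93 and 19.57 RPKM in ULAs and 13.51, 12.87 and 18.15 RPKM in DLAs, with all ULA values above all DLA values (log2 fold change 0.41, adjusted p = 0.164). The glutathione exporter Abcc1 was 4.68, 3.91 and 3.12 RPKM in ULAs and 2.68, 2.34 and 1.68 RPKM in DLAs, again without overlap (log2 fold change 0.60, adjusted p = 0.07). The other tested partners without overlap and higher in ULAs were Ptges (0.45), Ggt1 (0.36), Sepsecs (0.24), Chac1 (0.16) and Abcc5 (0.15). Besides Fth1, those lower in ULAs were Nxn (-0.49), Msrb2 (-0.39), Sepw1 (-0.37) and Rbx1 (-0.29). The 9 genes of NADPH supply, which powers both reductases, ran from -0.23 to 0.05.

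The libraries held the 9 astrocyte markers at high levels, from 98.7 RPKM upward. Without overlap, Slc1a3 (log2 fold change 0.42), Gja1 (0.27) and Slc1a2 (0.21) were higher in ULAs and S100b (-0.28) was lower. The rest overlapped between layers, and none of the 9 was called. Oligodendrocyte markers summed to 86.65 to 177.68 RPKM in ULAs and 176.33 to 278.74 RPKM in DLAs, with 6 of 7 tested markers called higher in DLAs. Red blood cell rows summed to 0.94 to 1.79 RPKM in ULAs and 15.35 to 76.71 RPKM in DLAs, highest in brain 3, with 3 of 4 called higher in DLAs. The haemoglobin rows Hbb-b2 and Hbb-b1 read 0 in all ULA libraries. Endothelial and oligodendrocyte precursor markers were all under the filter, and 1 of 8 neuronal and 1 of 7 microglial markers passed it. Of the pericyte markers Rgs5 was called higher in ULAs (log2 fold change 0.77, adjusted p = 0.0455) and Pdgfrb stood at 0.08. The 1 meningeal fibroblast marker above the filter, Col1a1, was at -0.55 without overlap (adjusted p = 0.13). Gfap, which is high in astrocytes near white matter and pia, was 10.37 to 12.49 RPKM in ULAs and 17.77 to 28.82 RPKM in DLAs and was called higher in DLAs. The other 3 markers of that list, Cd44, Aqp4 and Vim, were at 0.59, 0.14 and 0.13 and were not called, with the ULA values of Cd44 all above its DLA values. The part of these cells in the values of the antioxidant genes was not tested.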

How the data were processed

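RNA was amplified with SMART-Seq v4, made into Nextera XT libraries and sequenced as single 36-base reads. The deposited table holds RPKM values that the authors computed per symbol and per library, rounded down to 2 decimals, with the mRNA length of each row. The submitters' processing notes name bcl2fastq 1.8.4, CASAVA 1.8.2 and build mm9, and the aligner and counting program are not given in the sources used here. Each value is a whole number of reads divided by depth and length, which gave depths of 19700000 to 29600000 reads (99.8% to 100% of the low values of rows up to 500 bases equalled a whole read number to the last decimal kept, against 63.9% to 77.4% at the best depth more than 2% away). Coordinates are 1-based.

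RPKM values were tested as log2(RPKM + 1) with limma 3.58.1 in R 4.3.3, for the 13999 of 43383 rows whose mean RPKM was 1 or more, with terms for brain and layer, an intensity trend and Benjamini-Hochberg adjustment at 0.05. A fold change on this scale understates that of low genes. The p-values rest on the spread of each row over 3 brains and on the spread that limma pools over rows. The study's methods pair the layers by brain, and deviations of libraries with the same number correlated (r = 0.33 to 0.42, against -0.20 to -0.16 for different numbers). The members, roles and lists were chosen with earlier results of these data known. Genes named were the members that passed, those whose layers did not overlap, the 2 highest of each role, and fixed genes of synthesis, reduction and Nrf2 control; further genes are given by value. The share of 36-base stretches found in other genes was counted in GENCODE transcripts of GRCm38. Promoters came from RefSeq windows for 54 of 61 members and have another build than the table's coordinates, so no position was carried between them. The alternatives were other terms, pseudocounts, filters, scalings, a length correction and leaving out each brain.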

Additional observations from a re-analysis of the deposited data

How the results depend on the processing

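The count of members called higher in ULAs was 0 in all 12 alternatives. The count higher in DLAs was 2 in the reported fit, 0 without the replicate block (where all rows gave 23 and 18 calls in place of 100 and 128) and 0 without a filter on low RPKM (where no row of 27963 was called). It was 1, Gclm, under median centring, quantile normalization, length correction and no intensity trend, 3 at an adjusted p under 0.1, and 1 to 7 when 1 replicate was left out. The 7, without replicate 3, were Gclm, Gstt1, Gstk1, Txn2, Gstm1, Glrx5 and Gstm5, in a fit that called 687 rows higher in DLAs, and without replicate 1 it was Gclm alone. Gclc passed without replicate 2 (log2 fold change -0.95) but not without replicate 1 (-0.20) or replicate 3 (-0.46). The pairing by brain changed the calls of Gclm and Gstt1 and of no other named member. The median log2 fold change of the members was -0.08 after length correction and lay between -0.25 and -0.14 when 1 replicate was left out. Of 32 named members 25 kept their direction in every alternative that gave a value. Gpx8, Hmox2 and Mgst1 turned positive under quantile normalization (0.01, 0.04 and 0.06) and length correction (0.04, 0.06 and 0.08). Nqo1 and Prdx1 did so under length correction (0.03 and 0.01), Keap1 and Mgst1 without replicate 2 and Txnip without replicate 3. When 1 replicate was left out the values ran from -0.37 to 0.00 for Keap1, from -0.10 to 0.00 for Mgst1 and from -0.19 to 0.17 for Txnip. Values that kept their sign in these fits moved too, among others Sod3 (0.02 to 0.18) and Cat (-0.22 to -0.06). Prdx1 ran from -0.18 to -0.02 and Srxn1 from -0.44 to -0.20. The cause was not tested. With 3 brains the exact paired permutation test of 1 gene cannot go below p = 0.25, so the calls rest on the spread that limma pools over rows, and a p above the threshold does not show that a level was equal in both layers.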
